A study of Oryza sativa with 12 samples.

Results

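Auxin response factors (ARF) and Aux/IAA proteins carry the transcriptional response of plants to the hormone auxin, and the deposited rice table described 54 genes as one or the other. Rows were taken where the description named an auxin response factor or an auxin-responsive protein IAA, with 1 row for each locus name, the one with the highest mean count. This gave 25 ARF genes and 29 Aux/IAA genes among 50708 rows. Total RNA had been sequenced after removal of ribosomal RNA from 12 libraries in 4 groups of 3. They were the heat-tolerant line XN0437T under high night temperature stress, XN0437T in control, the heat-sensitive line XN0437S under the same stress, and XN0437S in control, all at the filling stage. Both are near-isogenic lines that differ in heat tolerance, so each line stands for 1 genotype. The labels state neither the temperature nor its duration, and name no organ. They also do not say whether the 3 libraries of a group are from different plants. The p-values thus measure only the spread among libraries, which may be technical.

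Aux/IAA proteins bind ARF proteins on DNA and recruit TOPLESS co-repressors. Auxin binds F-box receptors of the TIR1/AFB family, which mark Aux/IAA proteins for degradation and so free the ARFs. ARFs with a glutamine-rich middle region act mostly as activators and the others mostly as repressors, as worked out in Arabidopsis. Many Aux/IAA genes are themselves induced by auxin. Several ARF transcripts are known targets of small RNAs. In rice these are ARF8, ARF10, ARF18 and ARF22 for miR160, ARF6, ARF12, ARF17 and ARF25 for miR167, and ARF2, ARF3, ARF14 and ARF15 for the trans-acting RNAs called tasiR-ARF. The study's small RNA and degradome libraries were not used here. The locus LOC_Os10g33940 carries a duplicate number 16 in the deposited description and is called ARF22 here, because the only ARF of chromosome 10 in the reference table has that synonym. Numbers 22 and 28 of the Aux/IAA series were not among the rows found.

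Library totals lay between 85496090 and 100353570 counts. Levels are given as CPM, the count of a locus as a share of its library, after scaling by edgeR's TMM factors, except that genes are compared with each other only in the authors' FPKM, which is per length. The 5 loci with most counts took 25.2% to 27.2% of all counts in tolerant stress libraries and 21.7% to 31.3% in tolerant control libraries. In the sensitive line they took 26.4% to 28.6% under stress and 32.8% to 33.7% in control. Summed markers of the sampled material also moved with stress. The 3 endosperm markers (Glb1, Wx, NAC20) summed to 3553 to 3670 CPM in tolerant stress libraries, 11690 to 12660 in tolerant control, 4014 to 4376 in sensitive stress and 13050 to 13130 in sensitive control. The 2 embryo markers summed to 971.7 to 1013, 1857 to 2069, 1255 to 1336 and 1860 to 1891 CPM in the same order of groups, and the 4 green tissue markers to 255.6 to 293.1, 483.0 to 496.2, 259.5 to 281.6 and 371.2 to 433.3 CPM. All 3 endosperm markers and 1 of 2 embryo markers fell in both lines; of the green markers 2 of 4 fell in the tolerant line, and 3 fell and 1 rose in the sensitive line. Their part in the results below was not tested. In bulk samples like these, fewer cells of a type and less RNA per cell cannot be told apart.

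Nearly all members were detected, at widely different levels. ARF20 had no count in any library. IAA11 and IAA26 had counts in 3 and 1 of the 12 libraries, the highest being 17 and 7, and these 3 genes did not pass the filter on low counts. The other 51, 24 ARF and 27 Aux/IAA, were tested. Mean level over the 12 libraries was at least 1 FPKM for 21 ARF genes, whose median was 3.72 FPKM over all 25, and for 17 Aux/IAA genes, whose median was 1.49 FPKM over all 29.

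ARF4 was the most abundant member. ARF4 (LOC_Os01g70270), whose protein is known in rice as a partner of a GSK3-type kinase that sets grain size, averaged 30.3 ± 0.369 FPKM with tolerant stress, 41.3 ± 4.39 in tolerant control, 27.5 ± 4.32 with sensitive stress and 32.4 ± 4.42 in sensitive control (SD, n = 3 libraries each). ARF24 (LOC_Os12g29520) averaged 18.9 ± 1.04 FPKM with tolerant stress, 16.3 ± 0.152 in tolerant control, 16.1 ± 0.867 with sensitive stress and 14.3 ± 0.364 in sensitive control. ARF23 (LOC_Os11g32110), which in rice acts with ARF24 on a formin gene of the actin skeleton, averaged 16.6 ± 0.692 FPKM with tolerant stress, 18.2 ± 2.12 in tolerant control, 13.5 ± 1.94 with sensitive stress and 15.9 ± 2.12 in sensitive control. ARF14 followed closely, with 15.4 FPKM over all 12 libraries against 16.1 for ARF23, and the order of ARF24, ARF23 and ARF14 changed between groups.

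Aux/IAA genes were lower, the first 3 being IAA5, IAA10 and IAA1. IAA5 (LOC_Os01g48444) averaged 10.6 ± 1.04 FPKM with tolerant stress, 7.77 ± 0.0893 in tolerant control, 8.52 ± 0.975 with sensitive stress and 8.79 ± 0.282 in sensitive control. IAA10 (LOC_Os02g57250) averaged 7.59 ± 0.875 FPKM with tolerant stress, 10.3 ± 1.05 in tolerant control, 6.31 ± 0.341 with sensitive stress and 10.2 ± 0.632 in sensitive control. IAA1 (LOC_Os01g08320) averaged 8.97 ± 0.123 FPKM with tolerant stress, 7.29 ± 0.565 in tolerant control, 7.76 ± 0.339 with sensitive stress and 6.21 ± 0.503 in sensitive control. The order among these 3 changed from group to group. At the low end, ARF13, IAA7, IAA12, IAA16 and IAA27 averaged at most 0.108 FPKM and gave no call in any comparison.

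**Figure D1:**
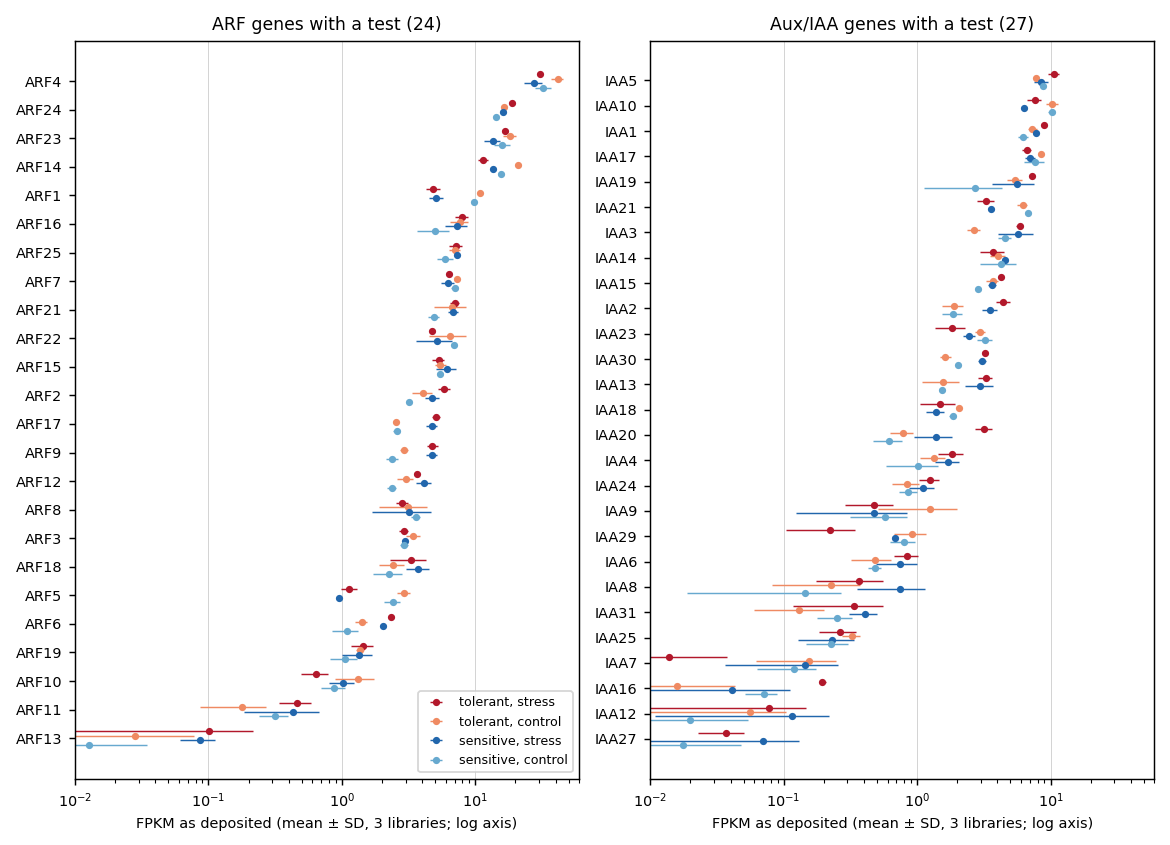
Mean FPKM of each tested ARF (left) and Aux/IAA gene (right) in the 4 groups on a log axis, with the SD of 3 libraries; values under 0.01 FPKM fall off the axis. ARF4 lies highest at 27.5 to 41.3 FPKM, and most Aux/IAA genes lie under 10 FPKM.

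Under stress, more members were lower than higher in both lines, with TMM scaling. In the tolerant line 25 of the 51 tested members passed the test, 8 higher and 17 lower, and in the sensitive line 21 passed, 6 higher and 15 lower, whereas library totals alone gave 12 higher and 10 lower in the tolerant line and 14 higher and 4 lower in the sensitive line. A pass means an edgeR quasi-likelihood p under 0.05 after Benjamini-Hochberg adjustment over all 33281 loci tested. The share of all loci that passed was 33.2% in the tolerant and 32.1% in the sensitive line, against 49.0% and 41.2% of the members. Among loci with at least 50 counts in 3 libraries, the shares were 42.3% of all loci and 54.3% of members in the tolerant line, and 41.2% of all loci and 45.7% of members in the sensitive line. By direction, 16.7% of all loci were called higher and 16.6% lower in the tolerant line, and 16.3% higher and 15.9% lower in the sensitive line. The median log2 fold change of members was -0.12 in the tolerant line, where that of all loci was 0.05, and -0.10 in the sensitive line, where that of all loci was 0.04. With library totals alone, all loci leaned to higher. Of the 33281 loci, 9165 were called higher and 2767 lower in the tolerant line, and 10356 and 2029 in the sensitive line. On that scale the median of members was 0.20 in the tolerant line, beside 0.37 for all loci. In the sensitive line it was 0.32, beside 0.46. With TMM factors, changes of 2-fold or more passed for 8 of the 51 tested members in the tolerant line, beside 5079 of the 33281 loci (15.3%), a similar share. In the sensitive line they passed for 4 of the 51, a smaller share than the 4656 of all loci (14%).

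By family, the calls were as follows. Of 24 ARF genes, 3 rose and 11 fell in the tolerant line and 4 rose and 9 fell in the sensitive line, but with library totals alone 6 rose and 5 fell in the tolerant line and 7 rose and 2 fell in the sensitive line. Of 27 Aux/IAA genes, 5 rose and 6 fell in the tolerant line and 2 rose and 6 fell in the sensitive line, but with library totals alone 6 rose and 5 fell, and 7 rose and 2 fell. With TMM factors 58.3% (tolerant) and 54.2% (sensitive) of ARF genes passed, and 40.7% and 29.6% of Aux/IAA genes. The shares of all loci were 33.2% and 32.1%. With at least 50 counts in 3 libraries, 60.9% and 56.5% of ARF genes and 47.8% and 34.8% of Aux/IAA genes passed. The shares of all such loci were 42.3% and 41.2%. In the sensitive line the Aux/IAA share was thus below that of all loci. Summed over the 25 ARF genes, the level was 671.8 ± 5.82 CPM with tolerant stress, 942.9 ± 49.1 in tolerant control, 636.0 ± 33.3 with sensitive stress and 833.6 ± 31.2 in sensitive control (SD, n = 3 each). Summed FPKM did not show the same drop in the sensitive line, at 155.1 ± 2.13, 176.8 ± 13.1, 148.6 ± 10.3 and 148.3 ± 6.85 in the same order of groups. Summed Aux/IAA levels were 188.8 ± 1.69, 210.4 ± 6.76, 169.1 ± 6.36 and 209.9 ± 5.78 CPM in that order of groups. In FPKM the Aux/IAA sums ran the other way, at 81.4 ± 1.36 with tolerant stress, 72.5 ± 1.75 in tolerant control, 74.03 ± 3.82 with sensitive stress and 69.7 ± 1.61 in sensitive control. In these sums the most abundant genes weigh most.

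**Figure D2:**
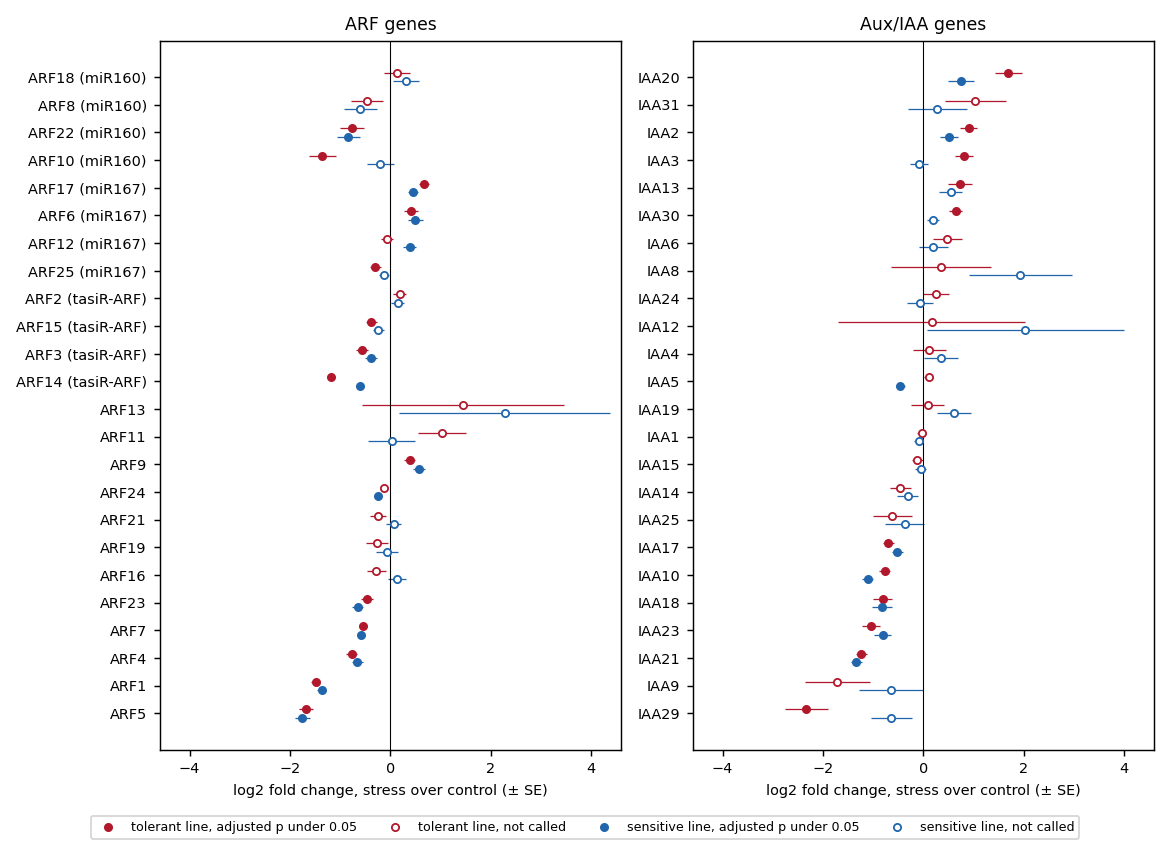
Log2 fold change of stress over control with its SE for each tested ARF (left, with its small RNA group) and Aux/IAA gene (right), tolerant line above sensitive line; filled points passed an adjusted p under 0.05. IAA7, IAA16 and IAA27, at most 0.108 FPKM, are left off because a change exceeded 3. ARF1, ARF5, IAA10 and IAA21 lie left of 0 in both lines; the scale is TMM, and with library totals alone 8 of the 51 tested members change side in the tolerant line and 13 in the sensitive line.

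The choice of scaling moved every member. Going from TMM factors to library totals moved the median log2 fold change of all loci to 0.37 in the tolerant and 0.46 in the sensitive line. Of the members that fell, 7 of 17 in the tolerant line and 11 of 15 in the sensitive line lost their call with library totals or with either FPKM fit, and none of those that rose did. These scales shift changes upward, which favours rises, so they cannot show that the rises are firmer than the falls. The falls that held in all 20 alternatives were ARF1, ARF4, ARF5, ARF10, ARF14, IAA10, IAA17, IAA21, IAA23 and IAA29 in the tolerant line and ARF1, ARF5, IAA10 and IAA21 in the sensitive line. The rises that held in all 20 were ARF17, IAA2, IAA3, IAA20 and IAA30 in the tolerant line and ARF9 and ARF17 in the sensitive line. With library totals 8 of the 51 tested members in the tolerant line and 13 in the sensitive line turned from below 0 to above it, of which 1 and 2 had been called. With library totals ARF3 in the sensitive line stood at 0.02, ARF24 at 0.17 in the sensitive and 0.20 in the tolerant line, and ARF25 in the tolerant line at 0.01.

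**Figure D3:**
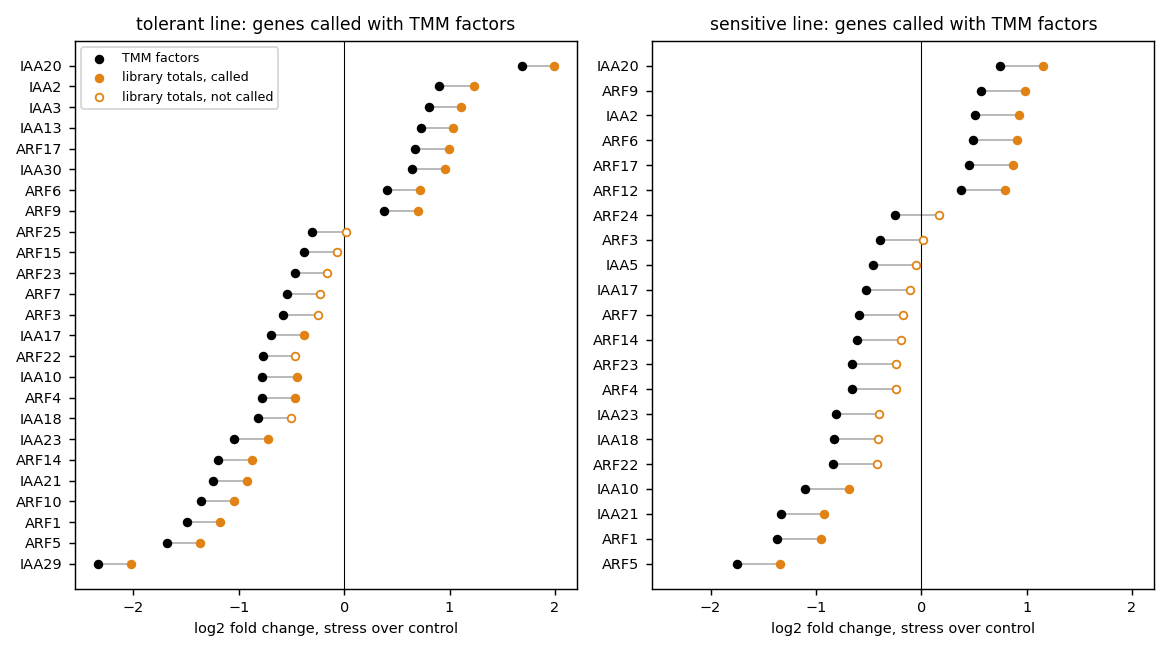
Log2 fold change of stress over control for the members called with TMM factors (black) and the same members with library totals alone (orange, filled where the call held), tolerant line left and sensitive line right. Every member moves to the right with library totals, and ARF25 (tolerant), ARF24 and ARF3 (sensitive) cross 0.

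The steepest falls among ARFs without a listed small RNA were those of ARF1 and ARF5. ARF1 is the locus LOC_Os01g13520 (chromosome 1, 7546885 to 7551996, build not given in the sources used). ARF1 had 14.96, 15.1 and 17.7 CPM in the tolerant stress libraries, against 45.3, 44.02 and 44.98 CPM in the tolerant control libraries. For ARF1, the sensitive stress libraries held 14.9, 17.7 and 17.7 CPM and the sensitive control libraries 44.5, 43.6 and 41.5 CPM. Every stress library lay far below every control library of its line, with log2 -1.49 ± 0.09 (SE; edgeR adjusted p = 6.78e-08) in the tolerant line and -1.36 ± 0.09 (SE; edgeR adjusted p = 2.05e-07) in the sensitive line. ARF5 (LOC_Os02g04810, chromosome 2, 2207419 to 2214903) is of the glutamine-rich class. ARF5 had 5.88, 6.87 and 5.096 CPM in the tolerant stress libraries, against 21.3, 18.1 and 17.9 CPM in the tolerant control libraries. For ARF5, the sensitive stress libraries held 4.92, 5.199 and 4.75 CPM and the sensitive control libraries 18.4, 17.8 and 13.96 CPM. Again no stress library reached a control library, with log2 -1.68 ± 0.14 (SE; edgeR adjusted p = 1.33e-06) in the tolerant line and -1.75 ± 0.14 (SE; edgeR adjusted p = 1.23e-06) in the sensitive line.

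The abundant ARF4 and ARF23 fell more mildly. ARF4 had 136, 134 and 132 CPM in the tolerant stress libraries, against 241, 241 and 207 CPM in the tolerant control libraries. For ARF4, the sensitive stress libraries held 102, 128 and 133 CPM and the sensitive control libraries 165, 195 and 213 CPM. Groups did not overlap within either line, and the change was log2 -0.78 ± 0.11 (SE; edgeR adjusted p = 0.000122) in the tolerant line and -0.66 ± 0.11 (SE; edgeR adjusted p = 0.000517) in the sensitive line. ARF23 had 79.9, 74.9 and 77.6 CPM in the tolerant stress libraries, against 116, 109.5 and 95.8 CPM in the tolerant control libraries. For ARF23, the sensitive stress libraries held 65.1, 52.9 and 71.2 CPM and the sensitive control libraries 94.5, 90.4 and 113 CPM. Its stress libraries were all lower, with log2 -0.47 ± 0.11 (SE; edgeR adjusted p = 0.00685) in the tolerant line and -0.66 ± 0.11 (SE; edgeR adjusted p = 0.000749) in the sensitive line. With library totals alone the ARF23 calls were lost in both lines (adjusted p = 0.384 tolerant, 0.173 sensitive), as was that of ARF4 in the sensitive line (0.156).

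ARF24 moved little. ARF24 had 85.7, 84.4 and 89.9 CPM in the tolerant stress libraries, against 93.8, 93.02 and 95.7 CPM in the tolerant control libraries. For ARF24, the sensitive stress libraries held 70.7, 74.5 and 75.3 CPM and the sensitive control libraries 89.8, 85.3 and 86.7 CPM. Stress libraries were below control libraries in both lines on the TMM scale, but the difference passed the test only in the sensitive line, at -0.25 ± 0.05 (SE; edgeR adjusted p = 0.0035) against -0.12 ± 0.05 (SE; edgeR adjusted p = 0.111) in the tolerant line, and it turned to higher under stress with library totals and FPKM. In the tolerant line ARF24 passed as higher with library totals (edgeR adjusted p = 0.0445) and with both FPKM fits (limma adjusted p = 0.011 and 0.012). In the sensitive line it passed as higher with both FPKM fits (limma adjusted p = 0.0358 and 0.0365). With library totals it did not pass there (edgeR adjusted p = 0.0795). ARF7 fell in both lines with TMM factors, with log2 -0.54 ± 0.08 (SE; edgeR adjusted p = 0.000154) in the tolerant line and -0.59 ± 0.08 (SE; edgeR adjusted p = 9.21e-05) in the sensitive line, and lost both calls with library totals. ARF9 was the one gene of this group that rose in both, with log2 0.38 ± 0.12 (SE; edgeR adjusted p = 0.0227) in the tolerant line and 0.56 ± 0.12 (SE; edgeR adjusted p = 0.00253) in the sensitive line; in the tolerant line it missed the threshold without tolerant control 1 or 3 or tolerant stress 2 (adjusted p 0.0568 to 0.105). ARF11, ARF13, ARF16, ARF19 and ARF21 passed in neither line.

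Of the 4 miR160 targets, ARF10 and ARF22 fell and the other two did not pass. ARF10 (LOC_Os04g43910, chromosome 4, 26013418 to 26016187) fell in the tolerant line only. ARF10 had 1.62, 2.46 and 1.68 CPM in the tolerant stress libraries, against 6.62, 3.67 and 4.44 CPM in the tolerant control libraries. For ARF10, the sensitive stress libraries held 2.38, 3.497 and 3.18 CPM and the sensitive control libraries 3.604, 2.74 and 4.07 CPM. The tolerant stress libraries were all below the tolerant controls, while the sensitive groups overlapped. The changes were log2 -1.35 ± 0.27 (SE; edgeR adjusted p = 0.00163) in the tolerant line and -0.20 ± 0.26 (SE; edgeR adjusted p = 0.619) in the sensitive line. The difference between these responses did not pass its own test, at -1.16 ± 0.37 (SE; edgeR adjusted p = 0.149), so the lines were not shown to differ. ARF22 had 15.4, 14.8 and 13.8 CPM in the tolerant stress libraries, against 27.5, 30.6 and 16.8 CPM in the tolerant control libraries. For ARF22, the sensitive stress libraries held 20.4, 10.5 and 16.9 CPM and the sensitive control libraries 28.6, 28.1 and 28.6 CPM. Its tolerant control 3 and sensitive stress 2 lay apart from the rest of their groups, yet stress and control did not overlap in either line. The changes were log2 -0.77 ± 0.23 (SE; edgeR adjusted p = 0.0214) in the tolerant line and -0.84 ± 0.23 (SE; edgeR adjusted p = 0.0141) in the sensitive line. Calls of ARF22 were lost with library totals in both lines (adjusted p = 0.167 tolerant, 0.203 sensitive) and in the tolerant line without tolerant control 1 or 2 or tolerant stress 2 or 3 (0.0556 to 0.0937).

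ARF8 and ARF18 passed in neither line. ARF8 had 7.63, 9.498 and 8.28 CPM in the tolerant stress libraries, against 13.6, 14.9 and 6.71 CPM in the tolerant control libraries. For ARF8, the sensitive stress libraries held 5.14, 13.6 and 9.43 CPM and the sensitive control libraries 15.6, 13.4 and 13.6 CPM. Stress and control overlapped in both lines, with log2 -0.47 ± 0.32 (SE; edgeR adjusted p = 0.293) in the tolerant line and -0.60 ± 0.32 (SE; edgeR adjusted p = 0.183) in the sensitive line. Without sensitive stress 2, the highest of its group, ARF8 passed in the sensitive line at -0.96 (adjusted p = 0.0453). ARF18 had 17.9, 17.6 and 9.45 CPM in the tolerant stress libraries, against 15.1, 10.2 and 15.7 CPM in the tolerant control libraries. For ARF18, the sensitive stress libraries held 16.2, 20.3 and 14.2 CPM and the sensitive control libraries 12.2, 11.4 and 17.2 CPM. These groups overlapped too, with log2 0.13 ± 0.25 (SE; edgeR adjusted p = 0.738) in the tolerant line and 0.31 ± 0.25 (SE; edgeR adjusted p = 0.394) in the sensitive line. With library totals ARF18 passed as higher in the sensitive line, at 0.73 (adjusted p = 0.04). Summed over the 4 genes, miR160 targets held 40.0 ± 5.99 CPM with tolerant stress, 55.3 ± 10.2 in tolerant control, 45.2 ± 2.26 with sensitive stress and 59.7 ± 3.92 in sensitive control, and in FPKM 11.5 ± 1.24, 13.3 ± 3.06, 13.1 ± 0.707 and 13.6 ± 0.868 in that order.

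The miR167 targets, all of the glutamine-rich class, were the ARF set with most rises. ARF17, known in rice for a part in defence against viruses, gave the clearest one. ARF17 had 27.1, 27.1 and 22.9 CPM in the tolerant stress libraries, against 16.5, 15.2 and 16.7 CPM in the tolerant control libraries. For ARF17, the sensitive stress libraries held 21.7, 25.3 and 23.9 CPM and the sensitive control libraries 18.1, 16.3 and 17.5 CPM. All stress libraries exceeded all controls of their line, with log2 0.67 ± 0.09 (SE; edgeR adjusted p = 0.000116) in the tolerant line and 0.45 ± 0.09 (SE; edgeR adjusted p = 0.00259) in the sensitive line, and no alternative removed this call. ARF6, which in rice controls grain length together with miR167 and an auxin influx carrier, was also higher. ARF6 had 12.2, 11.2 and 11.3 CPM in the tolerant stress libraries, against 8.31, 9.64 and 8.18 CPM in the tolerant control libraries. For ARF6, the sensitive stress libraries held 10.1, 9.73 and 10.5 CPM and the sensitive control libraries 9.03, 5.96 and 6.56 CPM. Stress and control did not overlap, with log2 0.41 ± 0.14 (SE; edgeR adjusted p = 0.0465) in the tolerant line and 0.49 ± 0.14 (SE; edgeR adjusted p = 0.0201) in the sensitive line. The tolerant call was lost without any 1 library other than sensitive control 1, sensitive control 2 or tolerant control 2 (adjusted p 0.0504 to 0.133), and the sensitive call without sensitive control 2 or 3 or sensitive stress 1 or 3 (0.0502 to 0.0805).

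ARF12 and ARF25 did not follow them in both lines. ARF12 has a reported part with miR167 in rice grain filling. ARF12 had 15.8, 15.2 and 14.1 CPM in the tolerant stress libraries, against 16.4, 16.97 and 13.7 CPM in the tolerant control libraries. For ARF12, the sensitive stress libraries held 17.4, 14.7 and 19.1 CPM and the sensitive control libraries 14.1, 13.4 and 11.9 CPM. Only the sensitive groups were apart, with log2 -0.06 ± 0.12 (SE; edgeR adjusted p = 0.746) in the tolerant line and 0.38 ± 0.12 (SE; edgeR adjusted p = 0.0295) in the sensitive line. Its sensitive call was lost without sensitive control 2 or 3 or sensitive stress 1 or 3 (adjusted p 0.0584 to 0.124), and the lines' responses did not differ by test, at -0.44 ± 0.17 (SE; edgeR adjusted p = 0.243). ARF25 had 31.5, 38.98 and 37.5 CPM in the tolerant stress libraries, against 43.4, 48.4 and 41.3 CPM in the tolerant control libraries. For ARF25, the sensitive stress libraries held 37.5, 36.4 and 35.5 CPM and the sensitive control libraries 41.9, 34.1 and 43.6 CPM. Tolerant stress libraries were below tolerant controls and sensitive groups overlapped, with log2 -0.30 ± 0.11 (SE; edgeR adjusted p = 0.0462) in the tolerant line and -0.13 ± 0.11 (SE; edgeR adjusted p = 0.401) in the sensitive line. The ARF25 call was marginal: it was lost without any 1 library other than sensitive control 2, sensitive control 3, tolerant control 3 or tolerant stress 2 (adjusted p 0.0551 to 0.178), and its direction turned with library totals. The 4 genes summed to 88.3 ± 3.60, 84.9 ± 5.15, 87.3 ± 1.51 and 77.5 ± 6.86 CPM in tolerant stress, tolerant control, sensitive stress and sensitive control. In FPKM their sums lay further apart, at 18.2 ± 0.518 with tolerant stress, 13.98 ± 1.15 in tolerant control, 18.1 ± 0.576 with sensitive stress and 12 ± 1.05 in sensitive control.

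Of the tasiR-ARF targets, ARF14 had a response that passed the test of a difference between the lines. ARF14 (LOC_Os05g43920, chromosome 5, 25555730 to 25561817) belongs to the ARF3 type, whose proteins in Arabidopsis shape leaf polarity and flower organs. ARF14 had 43.3, 36.7 and 38.4 CPM in the tolerant stress libraries, against 89.8, 92.9 and 88.3 CPM in the tolerant control libraries. For ARF14, the sensitive stress libraries held 47.5, 45.2 and 46.7 CPM and the sensitive control libraries 67.02, 73.2 and 72.6 CPM. The tolerant control libraries were the highest of all 12 and the tolerant stress libraries the lowest. The changes were log2 -1.19 ± 0.07 (SE; edgeR adjusted p = 5.77e-08) in the tolerant line and -0.61 ± 0.07 (SE; edgeR adjusted p = 2.86e-05) in the sensitive line. The difference of the 2 responses passed, at log2 -0.58 ± 0.10 (SE; edgeR adjusted p = 0.00783), and held in all 20 alternatives. It had 2 parts: in control ARF14 was higher in the tolerant line, at log2 0.35 ± 0.07 (SE; edgeR adjusted p = 0.0131), and under stress it was lower there without passing, at log2 -0.23 ± 0.07 (SE; edgeR adjusted p = 0.11). The control difference was lost without sensitive control 1 (adjusted p = 0.0534), and the stress difference passed without tolerant stress 1 (0.0481). The sensitive fall was lost with library totals (0.101). Of the 9 tissue markers, 4 also passed the test of the difference of responses, with OLE16 (embryo) at log2 -0.47, Wx (endosperm) at -0.49 and RCA (green tissue) at -0.49, like ARF14 below 0, and NAC20 (endosperm) at 0.31. In control 3 markers were higher and 2 lower in the tolerant line, with RCA at log2 0.35. Their part in the ARF14 difference was not tested.

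The other tasiR-ARF targets changed less. ARF3 had 10.8, 10.04 and 8.97 CPM in the tolerant stress libraries, against 14.4, 12.9 and 17.1 CPM in the tolerant control libraries. For ARF3, the sensitive stress libraries held 10.3, 10.1 and 10.1 CPM and the sensitive control libraries 14.4, 13.5 and 12.2 CPM. Stress libraries were lower in both lines on the TMM scale, with log2 -0.58 ± 0.12 (SE; edgeR adjusted p = 0.00231) in the tolerant line and -0.40 ± 0.12 (SE; edgeR adjusted p = 0.0226) in the sensitive line. The sensitive call was lost without sensitive control 1 or 2 or any sensitive stress library (adjusted p 0.0546 to 0.0821), and both calls were lost with library totals. ARF15 had 17.4, 18.6 and 20.5 CPM in the tolerant stress libraries, against 25.9, 25.1 and 22.4 CPM in the tolerant control libraries. For ARF15, the sensitive stress libraries held 18.99, 25.4 and 20.7 CPM and the sensitive control libraries 27.3, 24.9 and 24.98 CPM. Only the tolerant groups were apart, with log2 -0.38 ± 0.11 (SE; edgeR adjusted p = 0.0198) in the tolerant line and -0.24 ± 0.11 (SE; edgeR adjusted p = 0.119) in the sensitive line. That call was lost with library totals (0.729) and without tolerant control 1 or 2 or tolerant stress 1 or 2 (0.0573 to 0.0784); without sensitive stress 2, ARF15 passed in the sensitive line (0.021).

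ARF2 was not called in either line. ARF2 had 18.5, 18.6 and 21.2 CPM in the tolerant stress libraries, against 15.6, 14.7 and 20.9 CPM in the tolerant control libraries. For ARF2, the sensitive stress libraries held 14.3, 17.4 and 15.7 CPM and the sensitive control libraries 14.4, 14.2 and 14.2 CPM. Stress and control overlapped in both lines, with log2 0.19 ± 0.13 (SE; edgeR adjusted p = 0.297) in the tolerant line and 0.15 ± 0.13 (SE; edgeR adjusted p = 0.437) in the sensitive line. ARF2 passed as higher in both lines with library totals (log2 0.52 and 0.56), and in the tolerant line without tolerant control 3 (adjusted p = 0.0277). Summed over the 4 genes, tasiR-ARF targets held 87.7 ± 3.26 CPM with tolerant stress, 146.6 ± 1.71 in tolerant control, 94.2 ± 3.62 with sensitive stress and 124.3 ± 1.34 in sensitive control. In FPKM the sums were 25.5 ± 1.30 with tolerant stress, 33.9 ± 0.337 in tolerant control, 27.4 ± 1.55 with sensitive stress and 27.1 ± 0.416 in sensitive control, with no drop in the sensitive line.

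By protein class, 2 of the 9 glutamine-rich ARFs rose and 2 fell in the tolerant line, and 3 rose and 1 fell in the sensitive line. Of the 15 other tested ARFs, 1 rose and 9 fell in the tolerant line and 1 rose and 8 fell in the sensitive line. These calls used TMM factors, with which 16.7% of all loci rose and 16.6% fell in the tolerant line. In the sensitive line 16.3% of all loci rose and 15.9% fell. With library totals alone the glutamine-rich class gave 3 rises and 1 fall in the tolerant line and 4 rises and 1 fall in the sensitive line, and the 15 others gave 3 rises and 4 falls in the tolerant line and 3 rises and 1 fall in the sensitive line. Over all loci, the same scale gave 9165 rises and 2767 falls in the tolerant line and 10356 and 2029 in the sensitive line. The difference between the classes was not tested.

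**Figure D4:**
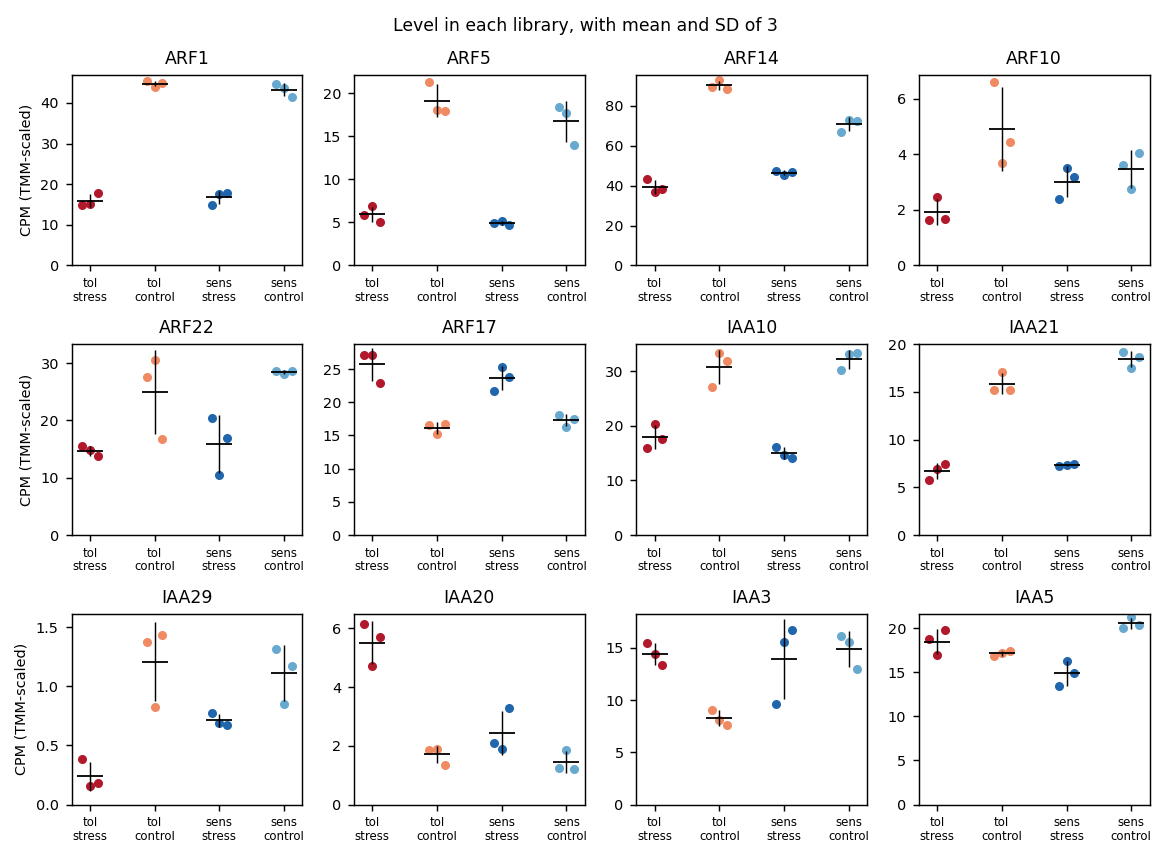
CPM in each of the 12 libraries for 12 members (points), with the mean and SD of the 3 libraries of a group (black), TMM-scaled. ARF14 spans 36.7 to 43.3 CPM in tolerant stress libraries and 88.3 to 92.9 in tolerant control libraries; IAA20 is highest in the tolerant stress libraries.

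Of the Aux/IAA genes, 5 fell in both lines: IAA10, IAA17, IAA18, IAA21 and IAA23. IAA21 (LOC_Os06g22870, chromosome 6, 13345333 to 13349182) changed most in the sensitive line. IAA21 had 5.78, 6.94 and 7.396 CPM in the tolerant stress libraries, against 15.2, 17.1 and 15.2 CPM in the tolerant control libraries. For IAA21, the sensitive stress libraries held 7.21, 7.32 and 7.399 CPM and the sensitive control libraries 19.2, 17.5 and 18.7 CPM. Stress libraries held less than any control library of the line, with log2 -1.24 ± 0.11 (SE; edgeR adjusted p = 1.79e-06) in the tolerant line and -1.33 ± 0.11 (SE; edgeR adjusted p = 1.19e-06) in the sensitive line. IAA10, a rice protein that a reovirus is known to bind and stabilise, had the highest FPKM of them over the 12 libraries, though not in the sensitive stress group, where it averaged 6.31 ± 0.341 FPKM and IAA17 7.06 ± 0.572. IAA10 had 16, 20.3 and 17.6 CPM in the tolerant stress libraries, against 27.2, 33.3 and 31.8 CPM in the tolerant control libraries. For IAA10, the sensitive stress libraries held 16.2, 14.6 and 14.04 CPM and the sensitive control libraries 30.2, 33.2 and 33.2 CPM. The groups were apart in both lines, with log2 -0.78 ± 0.11 (SE; edgeR adjusted p = 0.000107) in the tolerant line and -1.11 ± 0.11 (SE; edgeR adjusted p = 6.4e-06) in the sensitive line. Both genes kept their calls in all 20 alternatives.

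IAA23 and IAA18 were scarcer. IAA23 had 2.61, 2.56 and 3.75 CPM in the tolerant stress libraries, against 5.44, 6.200 and 6.73 CPM in the tolerant control libraries. For IAA23, the sensitive stress libraries held 3.67, 4.23 and 4.16 CPM and the sensitive control libraries 6.74, 8.15 and 6.31 CPM. No stress library overlapped a control library, with log2 -1.04 ± 0.18 (SE; edgeR adjusted p = 0.000562) in the tolerant line and -0.81 ± 0.18 (SE; edgeR adjusted p = 0.00339) in the sensitive line. IAA18 has been linked to salt and osmotic tolerance in rice. IAA18 had 4.86, 2.74 and 4.48 CPM in the tolerant stress libraries, against 6.81, 6.91 and 7.500 CPM in the tolerant control libraries. For IAA18, the sensitive stress libraries held 3.37, 4.36 and 3.56 CPM and the sensitive control libraries 6.37, 7.07 and 6.57 CPM. All stress libraries were lower, with log2 -0.81 ± 0.19 (SE; edgeR adjusted p = 0.00601) in the tolerant line and -0.83 ± 0.20 (SE; edgeR adjusted p = 0.00584) in the sensitive line. IAA17 fell too, with log2 -0.70 ± 0.11 (SE; edgeR adjusted p = 0.000265) in the tolerant line and -0.52 ± 0.11 (SE; edgeR adjusted p = 0.00247) in the sensitive line. In the sensitive line the calls of IAA17, IAA18 and IAA23 were lost with library totals (adjusted p = 0.508, 0.109 and 0.0829), and so was that of IAA18 in the tolerant line (0.0555).

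IAA29 showed the largest change of any called member over the 5 comparisons. IAA29 (LOC_Os11g11430, chromosome 11, 6356615 to 6358507) is a gene of low level, with a mean of 0.654 FPKM. Its tolerant stress libraries held only 40, 16 and 19 counts, against 115, 71 and 121 in tolerant control. Counts this low may stand for fewer fragments, so the size of the change is imprecise. IAA29 had 0.382, 0.154 and 0.178 CPM in the tolerant stress libraries, against 1.37, 0.823 and 1.43 CPM in the tolerant control libraries. For IAA29, the sensitive stress libraries held 0.772, 0.692 and 0.668 CPM and the sensitive control libraries 1.31, 0.853 and 1.17 CPM. Tolerant stress libraries were the lowest of all 12, with log2 -2.34 ± 0.43 (SE; edgeR adjusted p = 0.000976) in the tolerant line and -0.64 ± 0.41 (SE; edgeR adjusted p = 0.262) in the sensitive line. The difference of responses did not pass, at -1.69 ± 0.58 (SE; edgeR adjusted p = 0.177). Under stress IAA29 was lower in the tolerant line in every library, at -1.57 ± 0.42 (SE; edgeR adjusted p = 0.0681), which passed with DESeq2 (adjusted p = 0.013), with log2(FPKM + 0.1) (0.0377) and without tolerant stress 1 (0.0316).

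Aux/IAA genes also rose, 5 in the tolerant line and 2 in the sensitive line. IAA20 (LOC_Os06g07040, chromosome 6, 3342423 to 3346678), linked in rice to drought and salt tolerance, rose most. IAA20 had 6.14, 4.72 and 5.69 CPM in the tolerant stress libraries, against 1.87, 1.89 and 1.36 CPM in the tolerant control libraries. For IAA20, the sensitive stress libraries held 2.101, 1.89 and 3.28 CPM and the sensitive control libraries 1.25, 1.86 and 1.22 CPM. Tolerant stress libraries were above all others, with log2 1.69 ± 0.26 (SE; edgeR adjusted p = 0.000261) in the tolerant line and 0.75 ± 0.26 (SE; edgeR adjusted p = 0.0439) in the sensitive line. Between the lines under stress IAA20 was higher in the tolerant line, at log2 1.19 ± 0.26 (SE; edgeR adjusted p = 0.0239), a call lost without sensitive stress 1 or 2 or tolerant stress 1 or 3 (adjusted p 0.0792 to 0.105). The difference of the responses did not pass, at 0.94 ± 0.36 (SE; edgeR adjusted p = 0.242). The sensitive rise was lost without any 1 library other than sensitive control 2, sensitive stress 2, tolerant control 1 or tolerant control 3 (0.0524 to 0.207).

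IAA2 rose in both lines. IAA2 had 10.4, 12.8 and 10.3 CPM in the tolerant stress libraries, against 5.78, 4.88 and 7.25 CPM in the tolerant control libraries. For IAA2, the sensitive stress libraries held 8.88, 9.88 and 7.75 CPM and the sensitive control libraries 6.21, 5.25 and 7.16 CPM. Stress libraries were above control libraries throughout, with log2 0.90 ± 0.17 (SE; edgeR adjusted p = 0.00136) in the tolerant line and 0.51 ± 0.17 (SE; edgeR adjusted p = 0.0388) in the sensitive line. The sensitive call was lost without sensitive control 1 or 2 or sensitive stress 1 or 2 (adjusted p 0.0847 to 0.137). Another row on the same strand, with a mean of 4346 counts, overlaps IAA2, so its reads are uncertain. IAA13 and IAA30 rose in the tolerant line, at log2 0.73 ± 0.23 (SE; edgeR adjusted p = 0.0297) and 0.64 ± 0.12 (SE; edgeR adjusted p = 0.00145), against 0.54 ± 0.23 (SE; edgeR adjusted p = 0.1) and 0.19 ± 0.12 (SE; edgeR adjusted p = 0.281) in the sensitive line. IAA13 lost its call without tolerant control 3 or tolerant stress 1 or 2 (0.0705 to 0.103), and a row of mean 2703 counts overlaps it on the other strand. With library totals both passed as higher in the sensitive line too.

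IAA3 and IAA5 gave calls between the lines. IAA3 (LOC_Os01g13030, chromosome 1, 7249761 to 7254629) was low in the tolerant control libraries. IAA3 had 15.5, 14.4 and 13.3 CPM in the tolerant stress libraries, against 9.08, 8.12 and 7.62 CPM in the tolerant control libraries. For IAA3, the sensitive stress libraries held 9.59, 15.6 and 16.7 CPM and the sensitive control libraries 16.2, 15.6 and 12.96 CPM. Among the sensitive stress libraries, replicate 1 was close to the tolerant controls. In control IAA3 was lower in the tolerant line, at log2 -0.85 ± 0.18 (SE; edgeR adjusted p = 0.0161), and it rose there under stress, with log2 0.80 ± 0.18 (SE; edgeR adjusted p = 0.00392) in the tolerant line and -0.10 ± 0.18 (SE; edgeR adjusted p = 0.736) in the sensitive line. The difference of the responses was 0.90 ± 0.25 (SE; edgeR adjusted p = 0.0921), which passed with DESeq2 (adjusted p = 0.0213). The control difference was lost without sensitive control 1 or 2 or tolerant control 2 or 3 (0.0512 to 0.0608) and with log2(FPKM + 1) (0.0565).

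IAA5 (LOC_Os01g48444, chromosome 1, 27777506 to 27780978) was the second member whose response differed between lines. IAA5 had 18.7, 16.9 and 19.8 CPM in the tolerant stress libraries, against 16.9, 17.1 and 17.4 CPM in the tolerant control libraries. For IAA5, the sensitive stress libraries held 13.5, 16.3 and 14.9 CPM and the sensitive control libraries 19.99, 21.3 and 20.4 CPM. In the sensitive line every stress library was below every control library, and in the tolerant line the groups overlapped. The changes were log2 0.11 ± 0.09 (SE; edgeR adjusted p = 0.403) in the tolerant line and -0.46 ± 0.09 (SE; edgeR adjusted p = 0.00172) in the sensitive line. The difference was 0.57 ± 0.13 (SE; edgeR adjusted p = 0.0337). It was lost in 14 of 20 alternatives, among them library totals (adjusted p = 0.119), and without any 1 library other than sensitive stress 2 or tolerant stress 2 (0.0556 to 0.095). With library totals IAA5 changed by -0.05 in the sensitive line and passed as higher in the tolerant line. A row with a mean of 428.2 counts overlaps it on the other strand.

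IAA1 was not called in either line with TMM factors. IAA1 had 28.8, 28.7 and 28.3 CPM in the tolerant stress libraries, against 30.7, 26.4 and 30.8 CPM in the tolerant control libraries. For IAA1, the sensitive stress libraries held 26.6, 23.9 and 23.7 CPM and the sensitive control libraries 28.8, 26.4 and 24.01 CPM. Stress and control libraries overlapped in both lines, with log2 -0.04 ± 0.09 (SE; edgeR adjusted p = 0.811) in the tolerant line and -0.09 ± 0.09 (SE; edgeR adjusted p = 0.48) in the sensitive line; with log2(FPKM + 1) it passed as higher in both, at 0.27 and 0.28. The Aux/IAA genes that passed in neither line, IAA1 among them, numbered 15, and of these IAA9 had the largest change above 0.5 FPKM, at -1.72 ± 0.65 (SE; edgeR adjusted p = 0.0601) in the tolerant line.

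Many calls were shared between the lines, among members and among all loci. Of the members that fell, 13 did so in both lines, which is 76.5% of those in the tolerant and 86.7% of those in the sensitive line. Of the members that rose, 5 did so in both, 62.5% of those in the tolerant and 83.3% of those in the sensitive line. Over all loci, the shared calls were 70.1% of the falls in the tolerant and 73.2% of those in the sensitive line, and 67.8% and 69.4% of the rises. Only ARF10, ARF15, ARF25 and IAA29 (lower) and IAA3, IAA13 and IAA30 (higher) passed in the tolerant line alone, and only ARF12 (higher), ARF24 and IAA5 (lower) in the sensitive line alone; of these 10, IAA5 passed the test of the difference. All 25 called members of the tolerant line and all 21 of the sensitive line had stress and control libraries that did not overlap, as did 30 and 26 of the 51 tested. Over all loci tested, stress and control libraries did not overlap for 48.6% in the tolerant and 46.4% in the sensitive line.

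Between the lines themselves few members differed. In control 2 of 51 passed, ARF14 higher and IAA3 lower in the tolerant line, which is 3.92% beside 5.42% of all loci. Under stress 2 passed, ARF24 at 0.24 ± 0.05 (SE; edgeR adjusted p = 0.031) and IAA20, both higher in the tolerant line, which is 3.92% beside 3.4% of all loci. The ARF24 call was lost without any 1 of the 6 stress libraries (adjusted p 0.0583 to 0.132) and with library totals (0.107). For the difference of the responses 2 passed, ARF14 and IAA5, which is 3.92% beside 2.61% of all loci.

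Other genes of the auxin pathway, listed by description, passed in 42.3% of those tested in the tolerant line and 40.8% in the sensitive line, beside 33.2% and 32.1% of all loci tested and 42.3% and 41.2% of those with at least 50 counts in 3 libraries. Of 96 genes 71 were tested, and 12 rose and 18 fell in the tolerant line and 12 rose and 17 fell in the sensitive line, while library totals alone gave 19 and 10 in the tolerant and 21 and 8 in the sensitive line. Over all loci, library totals alone gave 9165 rises and 2767 falls in the tolerant line and 10356 and 2029 in the sensitive line. Genes listed under auxin conjugation (GH3 type, which attach amino acids to hormones) had 6 falls among 9 tested in the tolerant line and 5 in the sensitive line, against 3 and 2 with library totals. The list includes GH3.3 (LOC_Os01g12160), which is also described as a jasmonic acid-amido synthetase. Synthesis genes had 2 rises and 5 falls among 11 in the tolerant line and 1 and 5 in the sensitive line. SAUR genes, early auxin-induced growth genes, had 4 rises among 25 in the tolerant line and 5 rises and 1 fall in the sensitive line. Carriers had 5 rises and 4 falls among 20 in the tolerant line and 4 and 4 in the sensitive line. The 5 receptors had 1 rise and 2 falls in the tolerant line and 2 and 2 in the sensitive line. The 1 co-repressor, a TOPLESS-related gene, fell with TMM factors, at log2 -0.25 ± 0.05 (SE; edgeR adjusted p = 0.00271) in the tolerant line and did not pass in the sensitive line. Its change with library totals is not given here. That scale moved the median of all loci in the tolerant line from 0.05 to 0.37, so a fall this small depends on the scaling.

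Among single carrier genes with large changes, PIN5a and PIN8 were lower under stress and PIN9 and an influx carrier higher, while 11 of the 20 carriers in the tolerant line and 12 in the sensitive line did not pass. PIN5a (LOC_Os01g69070) averaged 2.09 ± 0.181 CPM with tolerant stress, 9.21 ± 0.224 in tolerant control, 1.69 ± 0.264 with sensitive stress and 8.84 ± 1.13 in sensitive control, with log2 -2.14 ± 0.15 (SE; edgeR adjusted p = 3.52e-07) in the tolerant line and -2.39 ± 0.16 (SE; edgeR adjusted p = 1.93e-07) in the sensitive line. PIN9 (LOC_Os01g58860) averaged 3.71 ± 0.361 CPM with tolerant stress, 0.379 ± 0.225 in tolerant control, 2.16 ± 0.334 with sensitive stress and 0.450 ± 0.0622 in sensitive control, with log2 3.29 ± 0.36 (SE; edgeR adjusted p = 1.51e-05) in the tolerant line and 2.26 ± 0.35 (SE; edgeR adjusted p = 0.000305) in the sensitive line. PIN8 (LOC_Os01g51780) was called lower in both lines, with 8, 0 and 0 counts in tolerant stress, 123, 52 and 106 in tolerant control, 0, 12 and 7 in sensitive stress and 56, 94 and 100 in sensitive control. The putative influx carrier LOC_Os11g06820 was called higher, with 59, 32 and 47 counts in tolerant stress and 52, 31 and 31 in sensitive stress, and 0 in all 6 control libraries.

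YUCCA5 (LOC_Os04g03980), of the last step of auxin synthesis, fell, at log2 -1.56 ± 0.30 (SE; edgeR adjusted p = 0.00153) in the tolerant line and -2.87 ± 0.33 (SE; edgeR adjusted p = 2.42e-05) in the sensitive line. SAUR76 (LOC_Os08g35110) rose, at log2 2.89 ± 0.41 (SE; edgeR adjusted p = 0.000131) in the tolerant line and 2.91 ± 0.41 (SE; edgeR adjusted p = 0.000146) in the sensitive line. GH3.1 (LOC_Os01g57610) fell, at log2 -2.36 ± 0.31 (SE; edgeR adjusted p = 6.9e-05) in the tolerant line and -1.60 ± 0.31 (SE; edgeR adjusted p = 0.00146) in the sensitive line. The SAUR36-like gene LOC_Os09g37440 rose in the sensitive line, at log2 2.85 ± 0.72 (SE; edgeR adjusted p = 0.00895), at 0.512 ± 0.193 CPM with stress against 0.0699 ± 0.0302 in control. These levels rest on 65, 31 and 65 counts with stress and only 8, 4 and 4 in control, so the size is imprecise. In the tolerant line it averaged 0.266 ± 0.0605 CPM with stress and 0.212 ± 0.0315 in control. The SAUR gene LOC_Os08g02520 was called higher in the tolerant line on 0, 19 and 45 counts under stress against 0 in control, groups that overlap.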

How the data were processed

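Total RNA was measured by sequencing in 12 rice libraries, 3 in each of 4 groups taken from the labels. Per the labels' protocols, ribosomal RNA was removed, libraries kept strand by dUTP, and reads were paired with 150 bases each. Each locus has whole-number counts and FPKM (fragments per kilobase, scaled to library size), both deposited by the authors under those names in the headers. The submitters' processing notes list StringTie 2.1.6, HISAT2 2.2.1, cutadapt 1.9, edgeR and DESeq2, with no roles. The calculation of either value, the use of strand in counting and the build of the coordinates were not stated; mm10, the build listed, is of mouse. Of counts from 1 to 20, 37.6% to 40.8% were multiples of 4, and 1 fragment may have been counted more than once, which makes low counts less precise than they look. Depth was 85496090 to 100353570 counts per library, and counting error is all it limits. Of the 50708 rows, 5381 have no locus name and stayed in the fit. Small RNA and degradome data are not analysed here.

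The test was that of edgeR 4.0.16 under R 4.3.3 on the counts, with filterByExpr, TMM factors, 1 quasi-likelihood fit of the 4 group means, two-sided tests of 5 comparisons and Benjamini-Hochberg adjustment over 33281 loci, threshold 0.05. The fit was tested on simulated data in which few loci changed, only in the sensitive stress group, with as many rises as falls. That setting differs from these data and does not test the choice of scaling. Alternatives were RLE factors, library totals alone, no filter, at least 50 counts in 3 libraries, DESeq2 1.42.0, limma 3.58.1 on log2(FPKM + 1) and log2(FPKM + 0.1) computed from the deposited FPKM, the replicate number as a block, leaving out each library, and every row of a locus name. The members, lists and tests were chosen with earlier results of these data known. Named with every library's value are, per comparison, the 5 called ARF and 5 called Aux/IAA genes with the largest change, the 3 of each family with the highest FPKM, and all small RNA target ARFs, and, of the other auxin genes, the 6 called with the largest change in each stress comparison. Further members are named where a count needed them. Of the 54 members, 51 were found under symbol and chromosome in a reference table of rice genes, assembly ASM3414082v1, used for names only.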

Additional observations from a re-analysis of the deposited data

Results flagged for a closer look

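ARF14 and IAA5 differed between the lines in their response to stress, by the test of the difference itself. For ARF14 the response of the tolerant line minus that of the sensitive line was log2 -0.58 ± 0.10 (SE; edgeR adjusted p = 0.00783), from 39.5 ± 3.43 CPM with tolerant stress, 90.3 ± 2.36 in tolerant control, 46.5 ± 1.18 with sensitive stress and 70.9 ± 3.41 in sensitive control (SD, n = 3 libraries each). For IAA5 it was 0.57 ± 0.13 (SE; edgeR adjusted p = 0.0337), from 18.5 ± 1.46, 17.1 ± 0.288, 14.9 ± 1.42 and 20.5 ± 0.658 CPM in the same order of groups. All 12 fits that left out 1 library kept the ARF14 call, while 10 of the 12 lost that of IAA5.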

How the results depend on the processing

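Counts of called members under stress stayed within 1.5 times under every alternative run. Leaving out 1 library gave 20 to 25 called members in the tolerant line and 16 to 21 in the sensitive line. It gave 1 to 2 between the lines in control, 0 to 2 between them under stress and 1 to 2 for the difference of responses. For the other auxin genes it gave 26 to 31, 26 to 31, 2 to 4, 4 to 8 and 1 to 4 in that order. With all 12 libraries, 4 of those 71 genes passed between the lines in control (5.63%, beside 5.42% of all loci). Under stress 8 passed between the lines (11.3%, beside 3.4%), and 6 for the difference of responses (8.45%, beside 2.61%). Every fit that left out 1 library gave fewer than those 6. Between the lines in control, log2(FPKM + 1) gave 1 called member. Between them under stress, library totals gave 1, DESeq2 5 and the replicate block 0, where edgeR without the block gave 2 and 12 members had an unadjusted p under 0.05. For the difference of responses, library totals, both FPKM fits and the replicate block gave 1 each. Of the other auxin genes, library totals gave 5 between the lines under stress and 2 for the difference, and the block gave 1 for the difference.

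With library totals 8 tested members in the tolerant line and 13 in the sensitive line turned direction. Among the named members, those called with TMM or on the other scale turned as follows: ARF3 in the sensitive line with library totals (0.02), log2(FPKM + 1) (0.016) and log2(FPKM + 0.1) (0.022), ARF24 in the sensitive line (0.168, 0.157 and 0.166) and in the tolerant line (0.197, 0.201 and 0.211), ARF25 in the tolerant line (0.015, 0.025 and 0.028), and IAA1 in the sensitive line (0.322, 0.283 and 0.319) and, with the FPKM fits, in the tolerant line (0.268 and 0.297). Over all tested loci, same-numbered libraries showed no clear common deviation (correlations -0.0123 to 0.0287 over 18 pairs, against -0.0242 to 0.02 over 36 pairs of different numbers). Correlations over all loci cannot exclude a pairing that touches few genes. With the block 23 members were called in the tolerant line and 19 in the sensitive line. Every row of a locus name gave 26 and 21. Low counts, which may stand for fewer fragments, limit ARF13, IAA7, IAA12, IAA16 and IAA27, and IAA29 in the tolerant stress libraries. Among the other auxin genes named, they limit PIN8, LOC_Os11g06820, LOC_Os09g37440 and LOC_Os08g02520. Strand use in counting was not stated.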
